A study of Mus musculus with 6 samples.

Results

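Antibody genes were read out in an RNA-seq experiment on T cells. The set described here held 123 immunoglobulin gene segments, out of 264 listed as variable, diversity, joining or constant immunoglobulin genes in a table of 54532 genes. A segment was included when its raw counts summed over the 6 libraries reached at least 10, so the members were chosen on their counts, but not on a difference between the groups. After TMM normalization 8 of the 11 tested constant regions were higher in the DB2313 group, beside 20.8% of all genes tested. Of the 8 regions, Ighg1 and Ighg2b remained higher when the libraries were scaled to T cell genes. Ighg1 had 3 counts in all in the control group. The sum of the variable segments overlapped between the groups. Summed constant segments took 320 ± 2.77 CPM (library-scaled counts, after TMM normalization) in control samples and 457 ± 8.24 with DB2313 (SD, 3 libraries each). Summed variable segments took 52.9 ± 4.54 and 53.9 ± 3.17 CPM.

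CD8T cells had been isolated from mouse spleen and stimulated with beads carrying anti-CD3 and anti-CD28. They were then kept for 24 hr in coculture with thioglycolate-elicited peritoneal macrophages, which had received IFN-γ at 10 ng/mL over 12 hr. The macrophages were free of DB2313 in the control group (CONT, 3 libraries) and pretreated with 14 nM DB2313, which blocks the transcription factor Spi1, in the DB2313 group (3 libraries). GEO's labels describe primary T cells incubated with dendritic cells, where the paper names macrophages, and no source used here says whether the 3 samples of a group came from separate cultures, so that p-values measure the spread between these samples.

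An antibody is built from heavy and light chains. In a developing B cell, a variable (V), a joining (J) and, for the heavy chain, a diversity (D) segment are cut and joined, and the joined exon is spliced to a constant (C) region. The heavy constant region sets the class of the antibody: Ighm encodes IgM, Ighd IgD, the Ighg genes IgG, Ighe IgE and Igha IgA. Resting B cells carry IgM and IgD on the surface, and class switch recombination replaces Ighm by one of the others. The light chain is either kappa (Igk) or lambda (Igl). Unrearranged loci can also be transcribed, without making an antibody chain.

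Of the members, 60 lay in the heavy chain locus on chromosome 12 (chr12:113254830-115953005), 56 in the kappa locus on chromosome 6 (chr6:67609713-70726966) and 7 in the lambda locus on chromosome 16 (chr16:19061618-19260859). All 123 had the coordinates that GENCODE mouse release M21 gives for GRCm38. They comprised 101 of 218 variable segments, 12 of 13 constant segments, 9 of 14 joining segments and 1 of 19 diversity segments. The depth was uneven. Ighm, Igkc and Iglc2 held 80.8% of the 47032 counts of all members, the median member had 30 counts over the 6 libraries, and 82 members had between 10 and 50. At the edge of the rule, Ighv1-19, Ighv1-23 and Ighv1-78 entered with 10 counts each, while Ighv2-6 and Ighv6-4 with 9 and Ighv14-4 with 8 did not.

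The libraries held 16611975 to 18596217 counts, and 127 to 143 of the immunoglobulin segments had at least 1 count in a library. A count of 0 allows 3 counts, at most 1.81e-05% of a library, and such limits cover counting error only. All 20 genes of a T cell list were detected. All 24 genes of a B cell list were detected too, among them Ms4a1, Cd79a and Pax5, and of a plasma cell list Tnfrsf17 was at 0 in 5 of the 6 libraries. The 20 macrophage genes were detected, and of the 10 dendritic cell genes only Siglech was at 0. The RNA was bulk, so fewer cells of a type and less RNA per cell cannot be told apart in any value below.

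The segments are short and alike, which bears on how reads could be assigned to them. The only diversity member, Ighd4-1, is 11 bases long, and the joining members are 38 to 54 bases long in the transcripts. The heavy joining segments Ighj1 (chr12:113429781-113429833) and Ighj4 (chr12:113428514-113428567), both on the minus strand, are shown with Ighd4-1 (chr12:113430528-113430538) because of their shortness. The capitals mark TGGGG, whose first 3 bases encode the tryptophan that closes the heavy chain's antigen contact loop. All sequences here are those of the GENCODE M21 transcripts, written 5′ to 3′ on the sense strand.
Ighd4-1: ctaactgggac
Ighj1: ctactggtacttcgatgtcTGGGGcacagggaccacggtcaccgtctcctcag
Ighj4: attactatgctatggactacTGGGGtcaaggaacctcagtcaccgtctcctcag

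Among the 101 variable members, 86 shared at least 1 window of 50 bases with another transcript of the annotation, and 32 had a relative with at least 95% identity. The median identity to the closest relative was 92.2%, with a range from 60.2% to 98.7%. The sources used here do not give how reads that match several segments were counted, nor whether the counting used the strand. Variable segments with close relatives are therefore uncertain as single genes. Ighm, Igkc, Ighd and Iglc1 shared no window of 50 bases with any other transcript. Igkc and the kappa joining members Igkj2, Igkj3, Igkj4 and Igkj5 overlapped the gene Gm30211 on the same strand, which had 6 to 18 counts per library. Iglc1, Iglc3, Iglv1 and Iglj1 overlapped 2010309G21Rik on the other strand, which had 1 count in all.

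The first comparison asked which segments changed in T cell cocultures when the partner cells had been treated with DB2313. After edgeR's filter on low counts, 38 of the 123 members could be tested among 14883 genes. Of these, 11 rose and 4 fell at an adjusted p below 0.05 (edgeR's quasi-likelihood test, Benjamini-Hochberg over all genes tested). Among all genes tested, 20.8% rose and 24.6% fell. A segment low in one group could pass that filter through the other group alone. With a filter that kept every gene of at least 10 counts in all, and so every member, 14 of 123 rose and 5 fell, beside 15.8% and 18.9% of 19433 genes. The 3 DB2313 libraries lay above the 3 control libraries in 25 of the 123 members and below them in 11, beside 20.9% and 23.6% of the 19433 genes of at least 10 counts. Among the 38 tested members these counts were 16 and 5, beside 25.6% and 27.5% of all genes tested. The rises and falls divided by segment class: 8 of the 11 rises were constant segments, and all 4 falls were variable segments.

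**Figure D1:**
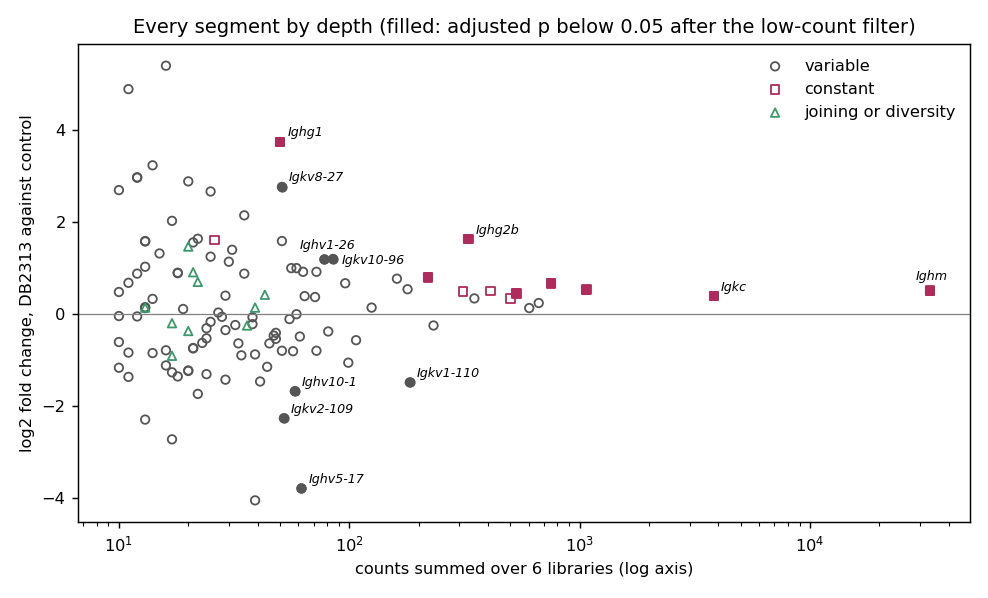
Log2 fold change of DB2313 against control (y axis) of each of the 123 members in the fit that kept every gene of at least 10 counts, by its counts summed over 6 libraries (x axis, log scale). Filled symbols passed the test after edgeR's own low-count filter. On this TMM scale the constant segments lie above 0, which 7 of 11 do not after scaling to T cell genes, and the variable segments scatter to both sides, most widely at low counts.

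Ighm (ENSMUSG00000076617, chr12:113418558-113422730), the constant region of IgM, was the most counted segment. It had 4678, 4392 and 4226 counts in control samples and 6787, 6381 and 6655 with DB2313. Every DB2313 library was above every control library, and the spread within a group was small, at 258 ± 1.91 CPM against 368 ± 6.14. The log2 fold change was 0.51 (SE 0.033), with an adjusted p of 5.21e-12 by edgeR, and it was -0.073 when the libraries were scaled to 20 T cell genes instead. Ighd (chr12:113406604-113416324), which is spliced from the same primary transcript as Ighm in mature B cells, had 123, 93 and 67 counts against 132, 151 and 185. The groups did not overlap in CPM, and the log2 fold change was 0.67 (SE 0.17, adjusted p = 0.00273 by edgeR), a call lost with the T cell genes, at 0.082. The Ighd share of Ighm plus Ighd counts was 2.07% ± 0.501 and 2.31% ± 0.398, and its groups overlapped.

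These directions depend on what the libraries are scaled to. TMM scaling left the median log2 fold change of all genes at 0.019. Scaled instead to the T cell list, whose 20 genes all rose under TMM with a median of 0.59, the median of all genes moved to -0.57. On that scale 7 of the 11 tested constant segments went below 0, namely Ighm, Igkc, Iglc2, Ighg3, Iglc1, Igha and Iglc3, with Ighm at -0.073 and Igkc at -0.20, and these last were called lower by edgeR. Ighg1 and Ighg2b kept their calls on it, at 3.20 and 1.04, while Ighd and Ighg2c stayed above 0, at 0.082 and 0.21, but lost theirs. That scale shifts all genes alike: 3 of the 38 tested members were called higher and 13 lower on it, beside 1.18% and 77.3% of all genes tested. Scaling to the B cell list moved the median of all genes to -0.18 and left all 11 above 0, of which 5 passed the test, beside 6.75% of all genes called higher and 43.5% lower. The log2 ratio of all member counts was 0.45 after TMM and -0.13 after scaling to the T cell list, and that of the constant segments 0.51 and -0.072.

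The IgG constant segments as a sum had a larger ratio than Ighm and kept its direction on each scale. Ighg1, Ighg2b, Ighg2c and Ighg3 together had 147, 125 and 106 counts in control samples and 234, 258 and 260 with DB2313. Their sum was 7.30 ± 0.836 and 14 ± 1.23 CPM, a ratio of 1.91, with no overlap between the groups. The log2 ratio was 0.94 after TMM and 0.35 after scaling to the T cell list. The IgG share of heavy constant counts was 2.67% ± 0.286 and 3.53% ± 0.277, also without overlap, and a share within the same counts does not depend on the scaling.

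Ighg2b (ENSMUSG00000076613, chr12:113302965-113307933) had 27, 27 and 24 counts in control samples and 61, 105 and 85 with DB2313. The lowest DB2313 library had more than any control library, and the log2 fold change was 1.63 (SE 0.26, adjusted p = 1.32e-05 by edgeR). Ighg1 (ENSMUSG00000076614, chr12:113325240-113330523) had 2, 0 and 1 counts against 17, 10 and 20. It was nearly absent from the control libraries and present in each DB2313 library. Over the summed counts, 3 against 47, the ratio was 15.0, with an exact 95% interval for counting error of 4.82 to 75.3. The fitted log2 fold change was 3.75 (SE 0.70, adjusted p = 1.17e-04 by edgeR). Ighg1 passed edgeR's filter through the DB2313 group alone. With every gene of at least 10 counts kept, its adjusted p was 3.58e-04 by edgeR (SE 0.77).

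Ighg2c had 32, 20 and 26 counts against 55, 43 and 44, with a log2 fold change of 0.80 (SE 0.27, adjusted p = 0.0197 by edgeR). Its call was lost on the T cell scale, at 0.21, without control replicate 2 and without DB2313 replicate 1. It was also lost after scaling to the B cell list and with DESeq2 in place of edgeR. Ighg3, the most counted IgG segment, had 86, 78 and 55 counts against 101, 100 and 111. Its rise on the TMM scale was the smallest of the 4, at 0.45 (SE 0.17, adjusted p = 0.0389 by edgeR), it was -0.14 on the T cell scale, and the call was lost in 4 of the 6 fits that left out 1 library: those without control replicates 2 and 3 and those without DB2313 replicates 2 and 3. The Ighg3 call was also lost after scaling to the B cell list, with DESeq2 and with a replicate block. The makeup of IgG counts differed accordingly. Ighg3 was 57.6% ± 5.31 of them in control samples and 41.5% ± 2.42 with DB2313, Ighg2b 20.9% ± 2.23 and 33.2% ± 7.33, and Ighg1 0.768% ± 0.697 and 6.28% ± 2.09. For each of these shares the groups did not overlap.

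The IgE segment had few counts, while the IgA segment had more in all than Ighg2b and fewer than Ighg3. Ighe had 2, 2 and 2 counts in control samples and 11, 5 and 4 with DB2313. It did not pass edgeR's filter, and among all genes of at least 10 counts its log2 fold change of 1.61 had an adjusted p of 0.159 (edgeR). Igha had 48, 45 and 72 counts against 93, 65 and 88. Its groups overlapped, and the log2 fold change was 0.50 with an adjusted p of 0.0649 (edgeR), and -0.082 on the T cell scale.

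**Figure D2:**
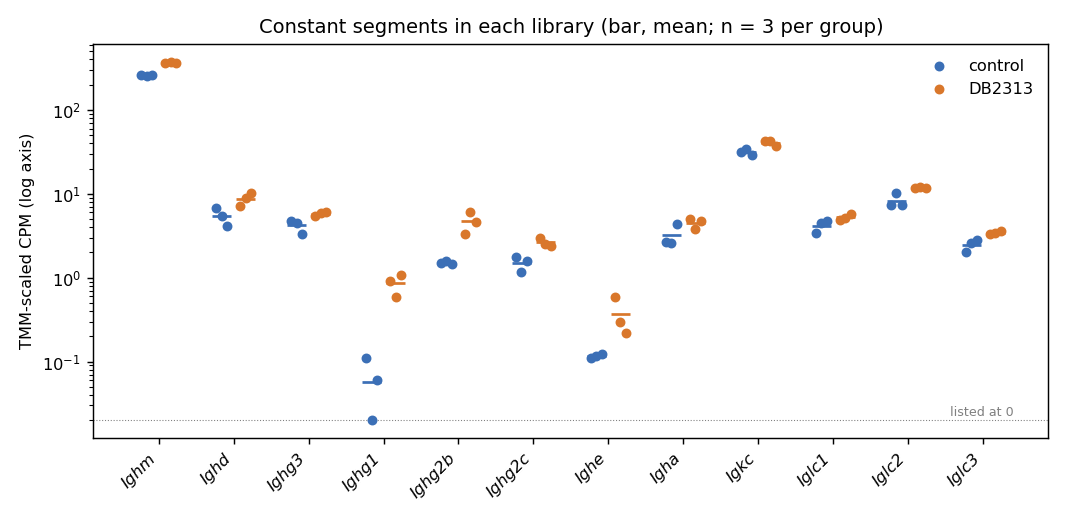
TMM-scaled CPM (y axis, log scale) of the 12 constant segments in each of the 3 control and 3 DB2313 libraries, with bars for group means and a dotted line for a value listed at 0. In 11 of the 12 segments the DB2313 points lie above the control points on this TMM scale, and Igha overlaps. Of all genes of at least 10 counts, 20.9% lie above in this way. Scaled to T cell genes, 7 of the 11 tested segments were below 0 in log2 fold change.

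Both kinds of light chain were counted. Igkc (ENSMUSG00000076609, chr6:70726435-70726966), the single kappa constant region, had 563, 586 and 469 counts in control samples and 787, 733 and 684 with DB2313. The groups did not overlap, and the log2 fold change was 0.38 on the TMM scale (SE 0.076, adjusted p = 2.21e-04 by edgeR) and -0.20 on the T cell scale. Of the lambda constant regions, Iglc2 had 132, 173 and 122 counts against 218, 207 and 218. It rose by 0.53 on the TMM scale (SE 0.13, adjusted p = 0.00187 by edgeR) and was at -0.06 on the T cell scale. Iglc1 and Iglc3 were also above the control libraries in every DB2313 library, with log2 fold changes of 0.34 and 0.49 and adjusted p-values of 0.127 and 0.0808 by edgeR, and so did not pass the test, and were at -0.24 and -0.092 on the T cell scale. The kappa share of light chain constant counts was 67.8% ± 2.89 in control samples and 66.4% ± 2.43 with DB2313, and the groups overlapped.

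Iglc2 and Iglc3 are 94.3% identical over their transcripts, so that their counts are uncertain where reads could be split between them. The stretch of 120 aligned bases with the most mismatches is given for both, with the 7 mismatches in capitals (Iglc2 at chr16:19198396-19200351, Iglc3 at chr16:19065230-19065681, minus strand).
Iglc2: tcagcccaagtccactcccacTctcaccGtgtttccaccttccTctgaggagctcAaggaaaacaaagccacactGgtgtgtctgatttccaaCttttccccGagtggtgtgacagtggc
Iglc3: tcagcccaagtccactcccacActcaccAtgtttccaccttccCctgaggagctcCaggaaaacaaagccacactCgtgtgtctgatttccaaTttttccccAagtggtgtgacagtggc

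Per length, Ighm was the most abundant constant segment, at 137 CPM per kb in control samples and 195 with DB2313. Igkc followed at 58.9 and 76.9, then Iglc2 at 13.5 and 19.5 and Iglc1 at 9.23 and 11.7. The ratio of Ighm to Igkc per kb was 2.33 ± 0.214 and 2.54 ± 0.174, and its groups overlapped. Ighg1 was at 0.0221 and 0.334 CPM per kb.

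The variable segments did not follow the constant segments. Their summed counts were 967, 981 and 787 in control samples and 1062, 895 and 950 with DB2313, and the log2 ratio of the summed CPM was 0.025, with overlap. By locus, the log2 ratio was -0.014 for the heavy chain and -0.035 for kappa, both with overlap. The 3 lambda variable segments, at 12.3 ± 0.307 and 14 ± 1.03 CPM, were above the control libraries in every DB2313 library, with a log2 ratio of 0.18 that was -0.40 on the T cell and -0.022 on the B cell scale. Counting each of the 101 variable members once, 48 had a positive and 53 a negative log2 fold change, with a median of -0.053, where the 12 constant members had 12 positive values and a median of 0.52. The median over all 19433 genes of that fit was 0.009.

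The variable share of all immunoglobulin counts was 14.2%, 15.0% and 13.1% in the control libraries and 11.1%, 10.1% and 10.3% in the DB2313 libraries. Each DB2313 library was below each control library, and this share does not depend on the scaling. Per length, the heavy variable level was 0.339 ± 0.0325 of the heavy constant level in control samples and 0.233 ± 0.0137 with DB2313, without overlap. For kappa the ratio was 1.03 ± 0.0708 and 0.779 ± 0.0527, again without overlap, and for lambda 1.17 ± 0.154 and 0.956 ± 0.103, with overlap.

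**Figure D3:**
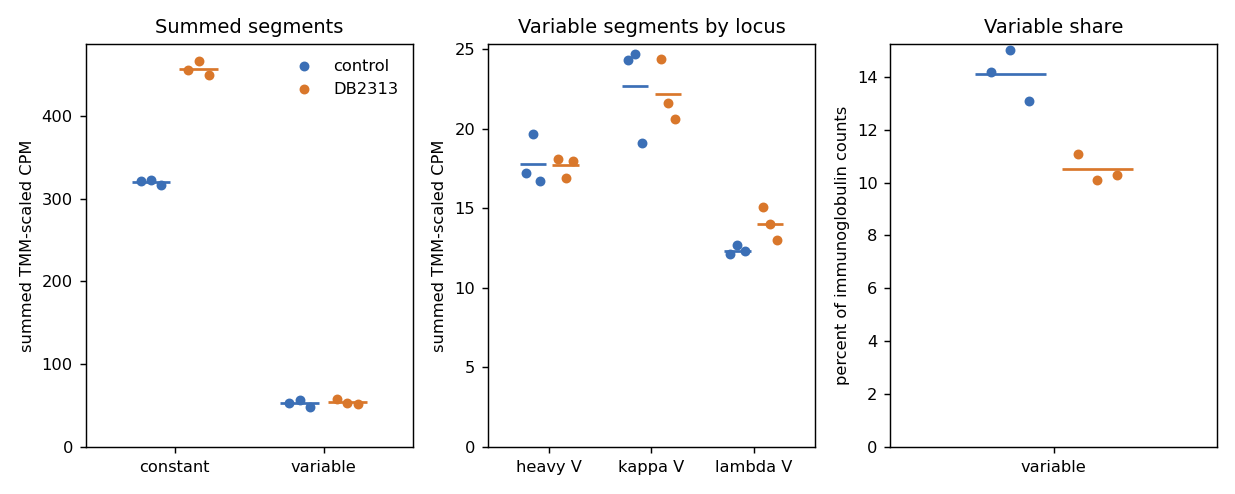
Summed TMM-scaled CPM of constant and variable segments (left), of variable segments by locus (middle), and the variable share of all immunoglobulin counts in percent (right), with a point per library and bars for group means (n = 3 per group). On this TMM scale the constant sum is higher with DB2313 (log2 ratio 0.51, but -0.072 scaled to T cell genes), the variable share is lower, and the heavy and kappa variable sums overlap.

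The most counted variable segments were lambda segments. Iglv1 had 94, 100 and 103 counts in control samples and 134, 117 and 116 with DB2313, with a log2 fold change of 0.24 (adjusted p = 0.206 by edgeR). Iglv2 had 106, 96 and 80 counts against 106, 108 and 108, with 0.13 (adjusted p = 0.526). Neither passed the test, and their values went below 0 after scaling to the T cell list. The most counted heavy variable segment, Ighv9-3, had 47, 52 and 51 counts against 86, 53 and 60, with 0.34 on the TMM scale (adjusted p = 0.226 by edgeR) and -0.25 on the T cell scale. Counts were spread over many segments: the top 3 held 32.3% of heavy and 24.3% of kappa variable counts.

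Of the 27 variable segments tested, 3 rose and 4 fell by edgeR, beside 20.8% and 24.6% of all genes, so that neither share was above that of genes in general. Apart from Igkv1-110, with 183 counts over the 6 libraries, each was carried by few counts, from 51 to 85. Only in the group where a segment was higher did every library reach edgeR's filter. With every gene of at least 10 counts kept, all but Ighv1-26 passed. The last 45 bases of each transcript are shown because the end of the segment is where it is joined to a D or J segment. The capitals mark the last in-frame cysteine codon, the conserved residue from which the antigen contact loop starts. The first 3 rose and the other 4 fell.
Igkv8-27: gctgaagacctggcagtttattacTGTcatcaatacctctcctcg
Igkv10-96: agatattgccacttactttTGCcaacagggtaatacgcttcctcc
Ighv1-26: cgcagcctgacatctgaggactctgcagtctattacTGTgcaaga
Ighv5-17: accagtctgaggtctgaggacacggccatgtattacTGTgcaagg
Igkv2-109: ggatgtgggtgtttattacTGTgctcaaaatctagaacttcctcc
Ighv10-1: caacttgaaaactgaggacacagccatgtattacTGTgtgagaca
Igkv1-110: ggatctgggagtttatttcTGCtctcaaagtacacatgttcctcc

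Ighv5-17 (chr12:113859149-113859670) had the largest fall among the segments that passed edgeR's filter. It had 13, 29 and 16 counts in control samples and 2, 1 and 1 with DB2313. The log2 fold change was -3.80 (SE 0.63, adjusted p = 2.73e-05 by edgeR), and the ratio of the summed counts, control over DB2313, was 15.2, with an exact 95% interval for counting error of 5.61 to 57.5. Its closest relative, Ighv5-9-1, was 88.7% identical. The Ighv5 family as a whole, with 5 members, had 15, 35 and 23 counts against 17, 28 and 11, and a log2 fold change of -0.44 (adjusted p = 0.397 by edgeR), which did not pass.

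Igkv2-109 (chr6:68302427-68303158) had 12, 17 and 14 counts in control samples and 2, 4 and 3 with DB2313, with a log2 fold change of -2.27 (SE 0.54, adjusted p = 0.00138 by edgeR). Ighv10-1 (chr12:114479005-114479451) had 19, 15 and 10 counts against 2, 4 and 8, with -1.68 (SE 0.52, adjusted p = 0.0111 by edgeR). In both segments the groups did not overlap in CPM. The Ighv10-1 call was lost without control replicate 1, without DB2313 replicate 1 and with DESeq2 in place of edgeR.

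Igkv1-110 (chr6:68270485-68271267) varied widely within the control group. It had 70, 42 and 22 counts there and 22, 19 and 8 in the DB2313 group. In CPM the groups did not overlap, by a narrow margin, and the log2 fold change was -1.49 (SE 0.39, adjusted p = 0.00302 by edgeR). The variance of its counts within the groups was 9.08 times their mean, where 1 is expected from counting alone and the median variable member had 1.81. Without control replicate 1 its call was lost.

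The close relative Igkv1-117 (chr6:68121046-68121827) had 58, 43 and 23 counts against 33, 29 and 46, with overlap, and a log2 fold change of -0.26 (adjusted p = 0.512 by edgeR) that turned to 0.029 without control replicate 1. A further segment of the family, Igkv1-135, had 21, 24 and 13 counts against 39, 37 and 27, with 0.77 (adjusted p = 0.0622 by edgeR), and so did not pass. The transcripts of Igkv1-110 and Igkv1-117 are 96.8% identical, and 50.9% of the 50-base windows of Igkv1-110 occur in another transcript. The stretch with the most mismatches is shown because only reads over such positions could tell these segments apart, with its 5 mismatches in capitals.
Igkv1-110: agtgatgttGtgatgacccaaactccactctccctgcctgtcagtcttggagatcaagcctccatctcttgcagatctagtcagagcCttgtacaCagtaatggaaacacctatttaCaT
Igkv1-117: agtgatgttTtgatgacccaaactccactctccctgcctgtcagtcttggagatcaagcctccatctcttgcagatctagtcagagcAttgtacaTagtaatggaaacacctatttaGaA

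Among the rises, Igkv8-27 (chr6:70171809-70172270) had 2, 4 and 0 counts in control samples and 22, 11 and 12 with DB2313, with a log2 fold change of 2.77 (SE 0.65, adjusted p = 0.00128 by edgeR). Igkv8-30 of the same family had 21, 28 and 14 counts against 12, 16 and 16, with -0.57 (adjusted p = 0.230 by edgeR), and the family of 6 members had a log2 fold change of 0.031 (adjusted p = 0.938). Igkv10-96 (chr6:68631963-68632442) had 9, 11 and 5 counts against 18, 26 and 16, with 1.20 (SE 0.43, adjusted p = 0.0276 by edgeR). The call was lost without control replicate 1, without control replicate 3 and without DB2313 replicate 2. It was also lost on the T cell and B cell scales and with DESeq2 in place of edgeR. Ighv1-26 (chr12:114788372-114788805) had 13, 7 and 3 counts against 12, 16 and 27. Its groups overlapped, its adjusted p was 0.0497 by edgeR, and the call was lost in 4 of the 6 fits that left out 1 library: those without control replicates 2 and 3 and those without DB2313 replicates 2 and 3. The Ighv1-26 call was also lost on the T cell and B cell scales, with DESeq2 and with a replicate block.

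**Figure D4:**
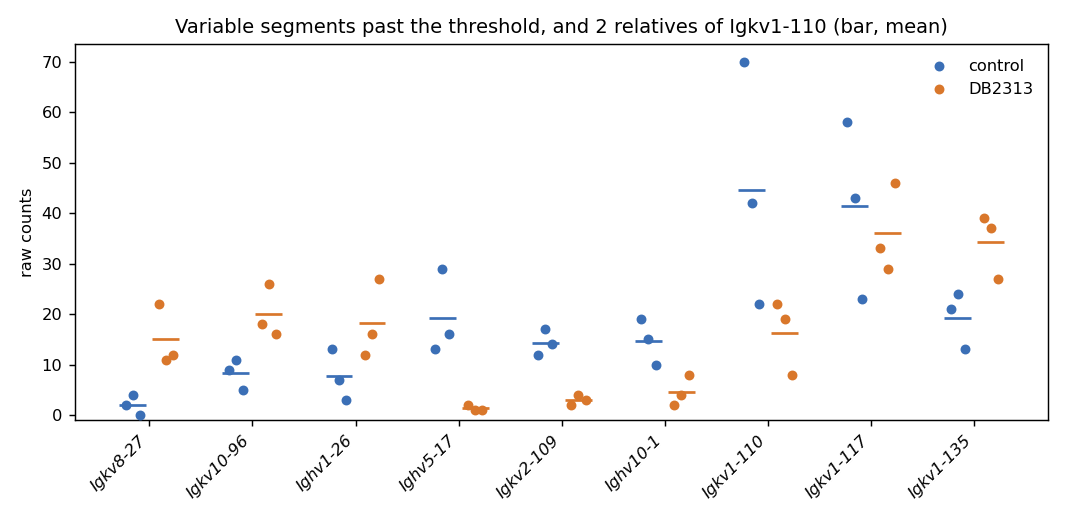
Raw counts (y axis) of the 7 variable segments past the threshold and of Igkv1-117 and Igkv1-135, relatives of Igkv1-110, in each of the 3 control and 3 DB2313 libraries, with bars for group means. Ighv5-17 is at 1 or 2 counts in the DB2313 libraries, Igkv1-110 ranges from 22 to 70 within the control group, and Ighv1-26 overlaps.

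The 7 segments lay at different distances from the joining cluster of their locus, from 429 kb for Ighv5-17 to 1359 kb for Ighv1-26 in the heavy chain locus, and from 550.0 kb for Igkv8-27 to 2451 kb for Igkv1-110 in the kappa locus. Segments close together did not all share a direction: Igkv2-109 and Igkv1-110, which both fell, lay at 2419 and 2451 kb, and Igkv2-112, with counts in the DB2313 group only, at 2502 kb. Summed by family, 23 of 33 variable families could be tested, of which 2 rose and 2 fell, beside 20.8% and 24.6% of all genes in that fit. Igkv10 rose with a log2 fold change of 1.22 (adjusted p = 0.0104 by edgeR) and Igkv6 with 0.79 (adjusted p = 0.030), while Ighv10 fell with -1.42 (adjusted p = 0.013) and Igkv2 with -1.15 (adjusted p = 0.0438). The most counted heavy family, Ighv1, with 21 members, had 103, 121 and 93 counts against 86, 98 and 90, with -0.27 (adjusted p = 0.190 by edgeR).

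Among all genes of at least 10 counts, 5 more segments passed the test, and they are named after their values were seen. Ighv1-20 had 4, 15 and 18 counts in control samples and 0, 0 and 2 with DB2313, with an adjusted p of 0.00173 by edgeR. The ratio of its summed counts, control over DB2313, was 19.3 (exact 95% interval for counting error 4.99 to 166). Igkv16-104 had 3, 1 and 2 counts against 9, 11 and 9, and Ighv8-12 had 1, 1 and 0 against 8, 3 and 7, with adjusted p-values of 0.0306 and 0.0375 by edgeR. Ighv2-5 had no count in control samples and 4, 2 and 10 with DB2313, a ratio of 5.10 with the control group set to 3 counts. Igkv2-112 had none against 4, 4 and 3, a ratio of 3.51 on the same basis. Both ratios take the DB2313 counts as exact, so they are not lower limits. Ighv1-26 did not pass in that fit.

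No joining or diversity segment passed edgeR's filter. Ighj4, the most counted of them, had 9, 5 and 4 counts against 10, 10 and 5, and Ighj1 had 3, 2 and 14 against 7, 3 and 7. Their groups overlapped, as did those of the heavy joining segments as a sum, at 1.03 ± 0.264 and 1.19 ± 0.326 CPM. The one joining segment without overlap between the groups was Igkj2, with 3, 2 and 0 counts against 6, 5 and 4. Its coordinates fall on the gene Gm30211 of the same strand, so the assignment of these reads is uncertain. Ighd4-1 had 7, 2 and 9 counts against 4, 3 and 14. Joining and diversity members had 0 to 14 counts per library, and no difference was detectable in them at this depth.

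Other genes of antibody production were read from the same fit. Of 23 tested genes of B cell identity, 9 rose and 2 fell, with a median log2 fold change of 0.29 beside 0.019 over all genes, and the shares of all genes were 20.8% and 24.6%. On the T cell scale 1 rose and 11 fell, beside 1.18% and 77.3% of all genes. Cd79a and Cd79b, the signalling partners of surface antibody, rose by 0.63 and 0.46 (adjusted p = 6.93e-05 and 2.94e-04 by edgeR) and were at 0.04 and -0.12 on the T cell scale. Cd79a had 180, 221 and 185 counts against 306, 335 and 304. The kinase gene Blk rose by 0.86, the B cell transcription factor Ebf1 by 1.38, Fcrla by 0.80 and the BAFF receptor Tnfrsf13c by 0.77 (adjusted p = 1.94e-06, 0.00395, 0.0067 and 0.0149 by edgeR). On the T cell scale Blk kept its call at 0.28, while Ebf1, Fcrla and Tnfrsf13c lost theirs, at 0.79, 0.21 and 0.19. The 4 most abundant genes of the list, Btla, H2-Ob, Spib and Pou2f2, did not pass, at 0.056, 0.017, -0.018 and 0.016. Pax5, a defining B cell transcription factor gene, did not pass either, at 0.04 (adjusted p = 0.90 by edgeR) and at -0.55 on the T cell scale. Blnk fell by 0.71 and Cd22 by 0.42 (adjusted p = 0.00138 and 0.0263 by edgeR).

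**Figure D5:**
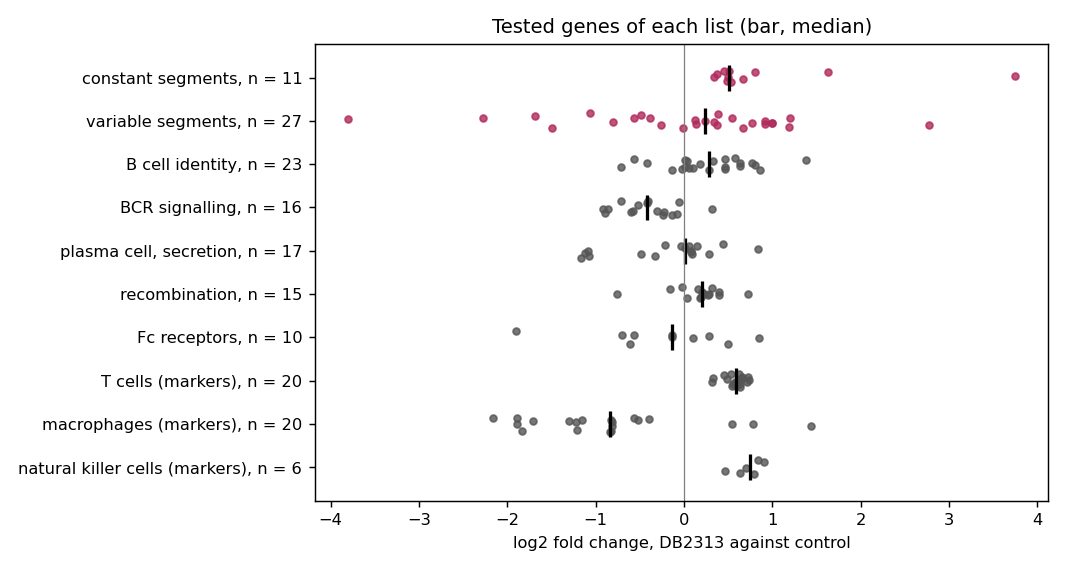
Log2 fold change of DB2313 against control (x axis) of each tested gene, by list (y axis), with a bar for the median of each list. On this TMM scale the constant segments have a median of 0.51 (-0.073 scaled to the T cell list), close to the 0.59 of the T cell markers, while the macrophage markers have a median of -0.83.

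For the lists that follow, the same shares of all genes apply, 20.8% higher and 24.6% lower. Of 16 genes of B cell receptor signalling, 1 rose and 13 fell, with a median of -0.41. Myeloid cells also use many of these genes, including Syk, Lyn and Plcg2, which fell by 0.86, 0.89 and 0.92. Cd81, a surface gene of many cell types, rose by 0.32 and was at -0.27 on the T cell scale. Of 17 tested genes of plasma cells and antibody secretion, 3 rose and 6 fell, with a median of 0.018, and the rises were about as frequent as among all genes. Jchain, which joins IgM and IgA into polymers, had 68, 79 and 93 counts against 125, 104 and 112 and rose by 0.44 (adjusted p = 0.0417 by edgeR) but was at -0.15 on the T cell scale, and Fkbp11 rose by 0.84, a call lost on that scale, at 0.26. The transcription factor genes Irf4 and Prdm1 fell by 1.17 and 0.48, and Sdc1, the plasma cell surface gene, by 1.09.

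Of 15 tested genes of V(D)J and class switch recombination, 7 rose and 1 fell, with a median of 0.21. Dntt, which adds bases at the joints, rose by 0.73 (adjusted p = 4.80e-05 by edgeR), a call lost on the T cell scale, at 0.14. Bach2 rose by 0.28, and the end-joining genes Xrcc6 and Xrcc5 by 0.32 and 0.40, and on the T cell scale Bach2, Xrcc6 and Xrcc5 were below 0. Dclre1c, the nuclease that opens the hairpin ends, fell by 0.76. Rag1, a subunit of the recombinase, had 30, 18 and 21 counts against 40, 33 and 22 and did not pass (0.40, adjusted p = 0.345 by edgeR, and -0.18 on the T cell scale), and Rag2 had 0 to 3 counts per library. Vpreb1, part of the surrogate light chain of B cell precursors, had 4, 6 and 0 counts against 9, 22 and 11. It did not pass edgeR's filter, and among all genes of at least 10 counts it rose by 1.99 (SE 0.70, adjusted p = 0.0294 by edgeR), and Vpreb2 was at 0 in all libraries.

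Fc receptors bind the constant part of antibodies. Of 10 tested Fc receptor genes 3 rose and 6 fell, with a median of -0.13. Fcgrt, the neonatal Fc receptor, fell by 1.90, from 70.6 ± 2.92 to 19 ± 1.53 CPM, and Fcgr3 and Fcer1g by 0.70 and 0.61. Fcmr, the receptor for IgM, rose by 0.85 (adjusted p = 3.73e-06 by edgeR), a call lost on the T cell scale, at 0.26.

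Lists of cell type markers also differed between the groups, some higher and some lower with DB2313. The summed T cell list went from 3936 ± 26.0 to 5908 ± 18 CPM, with 20 of 20 genes higher, and the 157 T cell receptor segments from 1014 ± 16 to 1499 ± 61.6. These log2 ratios of 0.59 and 0.56 lie beside 0.51 for the summed constant segments. The summed B cell list went from 245 ± 1.72 to 282 ± 4.45 CPM, a log2 ratio of 0.20, with library values of 243 to 246 and 277 to 285. Its most abundant genes, Btla, H2-Ob, Spib and Pou2f2, weigh most in that sum and did not pass the test. The median log2 fold change of its tested genes was 0.29. The natural killer cell list, with 5 of 6 tested genes higher, went from 30.1 ± 1.53 to 49.7 ± 3.24 CPM. The macrophage list went from 13833 ± 217 to 5508 ± 79.9 CPM, with 3 of 20 genes higher and 17 lower. The plasma cell list went from 2471 ± 17.4 to 2294 ± 25.6 CPM, with its sum set largely by genes that other cells use too. The part of these cell types in the immunoglobulin values was not tested.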

How the data were processed

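RNA-seq of 6 libraries was used, 3 per group, grouped by the description in GEO's labels. The authors deposited raw counts per gene, without normalization. The submitters' processing notes list CASAVA 1.8, HISAT2 2.0.5 and featureCounts 1.5.0-p3, where the paper names other software. The genome build, annotation, strand setting and treatment of multimapping reads are not given in the sources used here. Library totals ranged from 16611975 to 18596217. The chi-square per gene between replicates was 2.54 to 4.00, so none was a copy.

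Counts of all genes were fitted with edgeR 4.0.16 in R 4.3.3 (filterByExpr, TMM, glmQLFit and glmQLFTest) on the treatment group alone, and Benjamini-Hochberg adjusted p-values under 0.05 were called. CPM values are TMM-scaled. Intervals on ratios of summed counts are exact at 95% and cover counting error only. Sequences and identities come from GENCODE M21 transcripts. On simulated counts of these libraries edgeR called 199 of 200 changed genes, with 8 false calls among 14896 genes tested. The changed genes were drawn from well-counted genes only, so this recovery does not cover the many members with low counts. Every simulated gene had the same dispersion, and no change as small as that of Ighm was simulated. Far fewer genes changed than were called in the real fit, so the false calls do not carry over to it. Members, gene lists and tests were chosen with earlier results of these data known. Named were all constant segments, the 10 most abundant other segments, those past the adjusted p with the largest changes (up to 8 per direction), the members at the edge of the rule, and, of each list, the 4 most abundant genes and the 4 with the largest called changes. Cd79a, Cd79b, Pax5, Cd22, Cd81, Jchain, Prdm1, Rag1, Rag2, Vpreb1, Vpreb2 and Igkj2 were named after their values were seen, and some list genes are not reported here by name. Alternatives were DESeq2 1.42.0, other scalings, other filters, a replicate block, leaving out each library, sums by family, and a log2 fold change limit of 1.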

Additional observations from a re-analysis of the deposited data

How the results depend on the processing

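With 11 segments higher and 4 lower, the calls depended most on the scaling. Scaling to the T cell list gave 3 higher and 13 lower, scaling to the B cell list 6 and 5, library size 15 and 4, and upper quartile 14 and 4. Of all genes tested, these scalings called 1.18% higher and 77.3% lower, 6.75% and 43.5%, 33.1% and 19.2%, and 29.0% and 20.8%, since each shifts all genes alike. DESeq2 called 7 of 123 members higher and 4 lower, beside 8.67% and 11.7% of 27310 genes. An added limit of 1 on the absolute log2 fold change left 5 higher and 4 lower of the 38 tested. No share of all genes was taken with that limit. With at least 10 counts in every library, 18 members were tested, of which 0 fell by edgeR, also at an unadjusted p under 0.05. Of all genes in that fit, 26.0% fell. The 4 segments that fell in the main fit each had a library under 10 counts. This filter removed them before the test, so the 0 says nothing about them. Summed by family, 2 segments or families fell. Leaving out 1 library gave 10 to 11 higher and 4 to 5 lower. No pairing by replicate number was detectable, with correlations of deviations between -0.023 and 0.0284. Counting noise is part of these deviations, so they cannot show that the samples were unpaired. The replicate block gave 9 higher and 4 lower, with Ighg3 and Ighv1-26 lost, beside 19.6% and 23.7% of all genes.

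The log2 ratio of summed immunoglobulin counts, 0.45, was 0.55 with library size, 0.52 with upper quartile, 0.25 with the B cell list and -0.13 with the T cell list. It was 0.51 for constant and 0.025 for variable segments alone, and 0.44 to 0.47 without 1 library.

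Of the lists, B cell identity had 9 genes higher and 2 lower, B cell receptor signalling 1 and 13, plasma cells and secretion 3 and 6, recombination 7 and 1, and Fc receptors 3 and 6. In that order, scaling to the T cell list gave 1 and 11, 0 and 16, 0 and 13, 0 and 12, and 0 and 8 by edgeR, where at an unadjusted p under 0.05 the lists with 0 had 0 higher, or 1 for Fc receptors, and DESeq2 with its own scaling called 1, 2, 7 and 3 higher. The same shift of all genes, with 1.18% higher and 77.3% lower, applies to these lists. So do the shares of all genes given above for the other scalings, for DESeq2 and for the fits without 1 library. The B cell list moved B cell identity to 4 lower, receptor signalling to 0 higher (1 at an unadjusted p under 0.05), plasma cells to 1 and 11, and recombination to 1 and 2. B cell identity had 1 lower with library size, upper quartile and DESeq2, and plasma cells had 7 higher with library size and 6 with upper quartile. With the limit of 1 on the log2 fold change, 1 gene of B cell identity rose and 0 fell, 0 of receptor signalling and of recombination passed in either direction, 0 of plasma cells rose and 3 fell, and 0 Fc receptors rose and 1 fell. Without 1 library the numbers lay at 8 to 10 and 1 to 2, 1 and 12 to 13, 2 to 3 and 6 to 7, 6 to 9 and 1, and 3 and 4 to 6. B cell identity had 1 lower without control replicate 1 and without control replicate 2.

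Of 936 comparisons of 64 named genes, 810 kept direction and call, 52 lost and 30 gained the call, and 44 reversed. With the T cell list the log2 fold change became -0.073 for Ighm, -0.20 for Igkc, -0.06 for Iglc2, -0.14 for Ighg3, -0.24 for Iglc1, -0.082 for Igha, -0.092 for Iglc3, -0.35 for Iglv1, -0.45 for Iglv2 and Iglv3, -0.25 for Ighv9-3, -0.043 for Ighv6-3, -0.53 for Btla, -0.57 for H2-Ob and Pou2f2, -0.52 for Hspa5, -0.43 for Hsp90b1, -0.40 for Msh6, -0.30 for Bach2 and Trim21, -0.42 for Prkdc, -0.26 for Xrcc6 and -0.19 for Xrcc5. With the B cell list it became -0.074 for Iglv2, -0.067 for Iglv3, -0.15 for Btla, -0.19 for H2-Ob and Pou2f2, -0.14 for Hspa5, -0.05 for Hsp90b1, -0.014 for Msh6 and -0.041 for Prkdc. Spib became 0.076 with library size and 0.046 with upper quartile, and Vav1 0.018 with library size. Leaving out 1 library at a time gave -0.51 to 0.029 for Igkv1-117, -0.46 to 0.37 for Iglv3, -0.027 to 0.06 for H2-Ob, -0.069 to 0.019 for Spib and -0.053 to 0.06 for Pou2f2, with further sign changes of H2-Ob at -0.014, Pou2f2 at -0.014 and Spib at 0.0094 and 0.01. The causes were not tested.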

Other observations

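Segments outside the rule gave few counts. The 141 immunoglobulin segments with fewer than 10 counts summed to 58, 50 and 35 counts in control samples and 57, 49 and 66 with DB2313, and the groups overlapped. The 161 immunoglobulin pseudogenes summed to 3, 9 and 1 counts against 7, 2 and 10, also with overlap.

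The list of mast cell and basophil genes includes the IgE receptor genes Fcer1a and Ms4a2. It went from 1254 ± 9.71 to 1048 ± 12.5 CPM in sum (SD, n = 3 each), with 4 of 9 tested genes higher and 3 lower. The dendritic cell list went from 1714 ± 17.3 to 1463 ± 24.9 CPM, with 1 of 9 tested genes higher and 7 lower.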
